A study of Ambystoma mexicanum with 5 samples.

Results

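The nuclear-encoded subunits of the mitochondrial respiratory chain and ATP synthase were followed in axolotl kidneys (Ambystoma mexicanum, a salamander). Members were the rows of the deposited count table whose gene name begins with NDUF, UQCR, COX4, COX5, COX6, COX7, COX8 or ATP5, or is SDHA, SDHB, SDHC, SDHD or CYC1, with at least 10 counts over the 5 libraries. A total of 125 gene models had such a name, 22 of them had fewer than 10 counts (13 had none), and 103 were kept out of 100758 gene models in the table, of which 39937 had a count. The 103 models carried 80 distinct symbols, 21 of them on more than 1 model. Complex I had 34 models, complex II 4, complex III 13, complex IV 17, complex V (the ATP synthase) 24, and the NDUFAF assembly factors of complex I, kept apart, 11. NDUFA4 was placed in complex IV, since the deposited description names it a cytochrome c oxidase subunit. The count threshold passed between a UQCRC1 model with 7 counts outside and a UQCRFS1 model with 18 inside.

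RNA came from whole kidneys of 2 axolotls given gentamicin, an aminoglycoside antibiotic that injures the renal proximal tubule, and of 3 untreated control axolotls, with 1 library for each animal. The labels number the libraries gentamicin 1 and 3 and control 1, 2 and 3. Dose, interval from treatment to sampling, strain and age were not used here. The gentamicin libraries held 15163723 and 16404879 counts, and the control libraries 13674201, 15087765 and 14884904.

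The respiratory chain passes electrons from NADH (complex I) and succinate (complex II) through ubiquinone to complex III, then through cytochrome c to complex IV, which reduces oxygen. Complexes I, III and IV pump protons, and complex V uses the resulting gradient to make ATP. Most subunits are encoded in the nucleus, and the remainder in mitochondrial DNA. The proximal tubule is rich in mitochondria and meets its energy demand for reabsorption mainly by oxidative metabolism. The roles given below are those known from mammals.

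Transcripts of all 5 complexes were lower in gentamicin kidneys. Scaled by TMM (the trimmed mean of M-values), summed levels were 1.65-fold (complex I) to 1.82-fold (complex II) below those of controls. The differences were smaller as shares of all counts. By that measure complex I took 0.31% in gentamicin libraries and 0.409% in controls, and complex II 0.0941% in gentamicin libraries and 0.137% in controls (means). Together the members took 1.79% ± 0.0115 of all counts in gentamicin libraries and 2.49% ± 0.069 in controls (SD, n = 2 and 3). Their summed level was 16243 and 15224 CPM (counts scaled to library size by TMM) in gentamicin libraries 1 and 3, against 27246, 28166 and 26324 CPM in controls 1, 2 and 3. Both gentamicin libraries lay well below every control. In edgeR's quasi-likelihood test, adjusted over 22006 genes, 76 of 99 tested members fell at an adjusted p under 0.05, 1 rose and 22 did not pass. Among all genes tested, 13.4% were called lower, 13.3% higher and 26.8% in either direction. The median member had a log2 fold change of -0.76, or was 1.69-fold lower, while the median of all genes tested was 0.01. The changes were closely spaced, with 71 of the 99 tested members between 1.4- and 2.0-fold lower.

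Both gentamicin libraries lay below all 3 controls for 87 tested members, above them for 1, and among them for 11. Of all genes tested, 26.7% lay below and 28.6% above in this sense. Highly expressed genes were called lower more often throughout the kidney: of 3477 genes averaging about 50 CPM or more, 31.8% were called lower and 16.2% higher, with a median log2 fold change of -0.13. Of the 74 members at that level, 70 (94.6%) were called lower, with a median of -0.77. The 4 members that were not tested, 1 model each of NDUFA9 and UQCRFS1 and 2 of NDUFAF2, had too few counts in most libraries.

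The number of calls depended on the gentamicin pair. Without gentamicin library 3, 50 members were called lower, and without library 1, 65 were. Leaving out control 1, 2 or 3 gave 77, 73 and 75. A total of 47 members were called lower in the full data and in each of these 5 fits. Under scaling to total counts, which moved the all-gene median up by 0.32 (log2) and gave 76.6% of calls over all genes as higher against 49.8% with TMM, 52 members were lower and 1 higher. Every one of the 76 members called lower kept a negative log2 fold change in all 17 other settings fitted by gene model. The settings named below as ending a call are not a full list for each member.

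Proximal tubule transcripts moved with these genes. Of 22 tested models of proximal tubule markers 21 fell, with a median log2 fold change of -4.16, and their summed level was 713 CPM in each gentamicin library, against 13209, 12388 and 10840 CPM in controls 1, 2 and 3. Marker models of the distal nephron fell in 11 of 20 cases and rose in 1, with a median of -0.83 and summed levels of 2884 and 3331 CPM in gentamicin libraries against 4954 to 6308 CPM in controls. Macrophage marker models rose in 11 of 13 cases, with summed levels of 2370 and 1975 CPM in gentamicin libraries against 275 to 411 CPM in controls. Podocyte marker models rose in 2 and fell in 3 of 13 cases. The shares called lower were 95.5% for proximal tubule, 55% for distal nephron and 23.1% for podocyte models. Called higher were 84.6% of macrophage, 15.4% of podocyte and 5% of distal nephron models. Over all genes tested, 13.4% were called lower and 13.3% higher. A marker model can pass the filter on low counts through only the group where it is high, and which did so was not examined. The counts of calls and medians of these lists carry that limit, while the summed levels also hold untested models. In whole-kidney RNA, fewer cells of a type and less RNA per cell cannot be told apart. The part of cell composition in the lower respiratory chain levels was not tested.

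**Figure D1:**
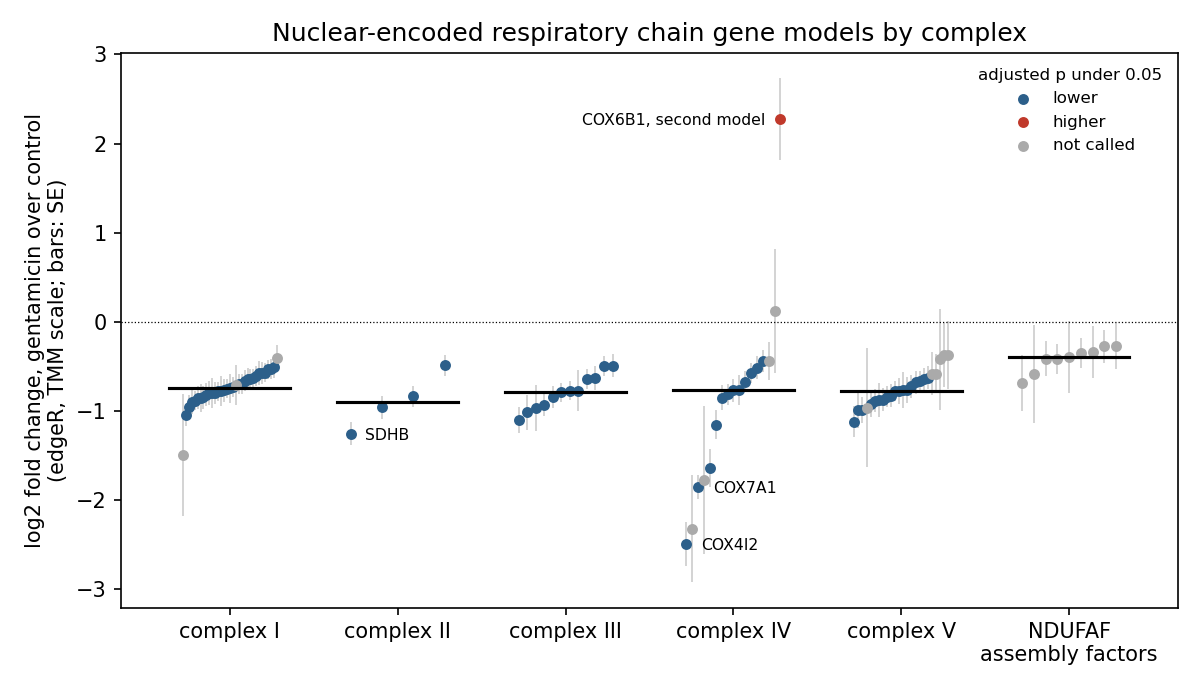
Log2 fold change of each tested gene model, gentamicin over control (vertical axis; edgeR on the TMM scale, bars ± SE), grouped by complex along the horizontal axis. Black lines mark the group medians, which lie between -0.74 and -0.90 for complexes I to V and at -0.39 for the NDUFAF factors. A second COX6B1 model is the only point called higher.

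Complex I oxidises NADH at the tip of its matrix arm and pumps protons through its membrane arm. All 33 tested models lay lower in both gentamicin libraries than in every control, and 30 of them fell, with a median log2 fold change of -0.74. Summed over its models, complex I stood at 2814 and 2626 CPM in gentamicin libraries 1 and 3, against 4510, 4427 and 4498 CPM in controls 1, 2 and 3. The 5 libraries separated cleanly by group. Without gentamicin library 3 the number of calls was 19, and under total-count scaling it was also 19.

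The electron-input end of the arm, the N module, had all 7 tested models called lower, with a median of -0.77. NDUFV1, which binds NADH and the flavin, measured 178 and 173 CPM in gentamicin libraries 1 and 3, against 266, 324 and 325 CPM in controls 1, 2 and 3. The groups did not overlap, and its log2 fold change was -0.80 ± 0.13 (SE; edgeR adjusted p = 0.0029). NDUFS4, an accessory subunit needed to attach the N module, had 41.8 and 40.5 CPM in gentamicin kidneys, against 91.5, 82.2 and 81.0 CPM in controls. It fell by 1.05 ± 0.12 on the log2 scale (edgeR adjusted p = 0.000373), the most negative value among the called complex I models. NDUFA12, which sits at the same junction, fell by 0.96. NDUFS1, the largest iron-sulfur subunit, fell by 0.53 ± 0.11 (edgeR adjusted p = 0.00868), and lost its call without gentamicin library 1 (adjusted p = 0.0861).

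The Q module, where ubiquinone binds, had 7 of 8 tested models called lower, with a median of -0.80. NDUFA7, an accessory subunit, had the smallest change of the called complex I models, -0.51 ± 0.12 (edgeR adjusted p = 0.0177), and was not called without gentamicin library 1 or 3. A second NDUFA7 model, with 4 to 21 counts per library, was not called at -1.49 ± 0.68 (edgeR adjusted p = 0.149).

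In the membrane arm 16 of 18 tested models fell, with a median of -0.72. NDUFAB1, the mitochondrial acyl carrier protein, was the complex I subunit with the most counts and had 254 and 233 CPM in gentamicin libraries, against 383, 393 and 407 CPM in controls. It fell by 0.69 ± 0.11 on the log2 scale (edgeR adjusted p = 0.00273), with no overlap between the groups. NDUFA10 fell by 0.63 ± 0.11 (edgeR adjusted p = 0.00331) and NDUFB10 by 0.57 ± 0.13 (edgeR adjusted p = 0.0115). NDUFB10 was not called without gentamicin library 1 or 3. NDUFB5, the other end of the range, was not called at -0.40 ± 0.15 (edgeR adjusted p = 0.0802), although its 16.7 and 18.3 CPM in gentamicin libraries lay below the 21.5 to 25.9 CPM of the controls. The remaining uncalled model was a second NDUFA1 model on an unplaced contig, with 75 to 102 counts per library (-0.71 ± 0.23; edgeR adjusted p = 0.0522).

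Complex II, or succinate dehydrogenase, is shared by the respiratory chain and the tricarboxylic acid cycle and is encoded wholly in the nucleus. All 4 subunits fell, with a median log2 fold change of -0.90 and a summed level of 824 ± 49.4 CPM in gentamicin kidneys, against 1498 ± 73.1 CPM in controls (SD, n = 2 and 3). SDHB, the iron-sulfur subunit on chromosome 8q (295239843 to 295409537, as deposited), measured 160 and 154 CPM in gentamicin libraries 1 and 3, against 337, 401 and 385 CPM in controls 1, 2 and 3. Both gentamicin values lay far below the lowest control, and the log2 fold change was -1.25 ± 0.13 (edgeR adjusted p = 0.000216). SDHA, the flavoprotein that oxidises succinate, had 242 and 274 CPM in gentamicin kidneys, against 468, 531 and 504 CPM in controls. It fell by 0.96 ± 0.12 on the log2 scale (edgeR adjusted p = 0.00085).

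The membrane anchors of complex II bind its heme and help form the quinone site. SDHD had 128 and 129 CPM in gentamicin libraries, against 233, 243 and 212 CPM in controls. It fell by 0.84 ± 0.12 on the log2 scale (edgeR adjusted p = 0.00119). The SDHD name comes from a match to a non-human protein, beside a differently named human match and no description. SDHC had 259 and 302 CPM in gentamicin libraries, against 393, 399 and 387 CPM in controls. Its groups were separate, but its log2 fold change of -0.48 ± 0.12 (edgeR adjusted p = 0.0181) was the smallest of the complex. The call was lost under total-count scaling (edgeR adjusted p = 0.347), with the label number as a block (0.063) and by limma on unfiltered log2(FPKM + 1) (0.0533). Without gentamicin library 1 SDHC was not called either, at a log2 fold change of -0.38. The differences between subunits were not tested.

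Complex III passes electrons from ubiquinol to cytochrome c. All 12 tested models fell, with a median log2 fold change of -0.78, and all 12 had both gentamicin libraries below every control. The summed level was 1649 ± 89.5 CPM in gentamicin kidneys, against 2750 ± 63.4 CPM in controls (SD, n = 2 and 3). Without gentamicin library 3, 6 models were called, and with total-count scaling likewise 6. Of the catalytic subunits, UQCRFS1, the Rieske iron-sulfur protein, measured 79.4 and 74.7 CPM in gentamicin libraries, against 137, 127 and 131 CPM in controls. The groups were far apart relative to their spread, at a log2 fold change of -0.77 ± 0.11 (edgeR adjusted p = 0.00136).

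CYC1, or cytochrome c1, had 329 CPM in each gentamicin library, against 472, 409 and 506 CPM in controls 1, 2 and 3. All 3 controls were higher, and the main model's log2 fold change was -0.49 ± 0.13 (edgeR adjusted p = 0.0246). This call was lost without control 3 (edgeR adjusted p = 0.0519), under total-count scaling (0.34) and by limma on unfiltered log2(FPKM + 1) (0.0793). Without gentamicin 1 or 3 the model was not called either, at a log2 fold change of -0.49 each. A second CYC1 model with 65 to 92 counts per library fell by 0.77 ± 0.23 (edgeR adjusted p = 0.0416), and was not called without control 1, control 2 or either gentamicin library, by DESeq2 (adjusted p = 0.0535), or without the filter on low counts (0.0632).

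The core proteins UQCRC1 and UQCRC2, which resemble mitochondrial processing peptidases, both fell. UQCRC2 measured 310 and 299 CPM in gentamicin kidneys, against 541, 529 and 511 CPM in controls, a log2 fold change of -0.79 ± 0.11 (edgeR adjusted p = 0.00132). UQCRC1 averaged 255 CPM in gentamicin kidneys and 398 CPM in controls, and its main model fell by 0.64 ± 0.11 (edgeR adjusted p = 0.00379). A second UQCRC1 model on an unplaced contig, with 113 to 197 counts per library, fell by 1.02 and was not called without gentamicin library 3 (adjusted p = 0.0696).

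The small subunits of complex III fell in 6 of 6 models, with a median of -0.89. UQCR11 had 142 and 108 CPM in gentamicin libraries, against 293, 253 and 259 CPM in controls, a log2 fold change of -1.10 ± 0.15 (edgeR adjusted p = 0.00112). UQCR10 averaged 172 CPM in gentamicin kidneys and 329 CPM in controls, and fell by 0.93 ± 0.12 (edgeR adjusted p = 0.000903). UQCRQ, a subunit beside cytochrome b, had the least negative value of this group, -0.49 ± 0.12 (edgeR adjusted p = 0.0154), and was not called without gentamicin library 3 (adjusted p = 0.143). A low second UQCRB model, with 85 to 149 counts per library, fell by 0.96 ± 0.26 (edgeR adjusted p = 0.0273) and lost its call without gentamicin library 1 or 3.

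**Figure D2:**
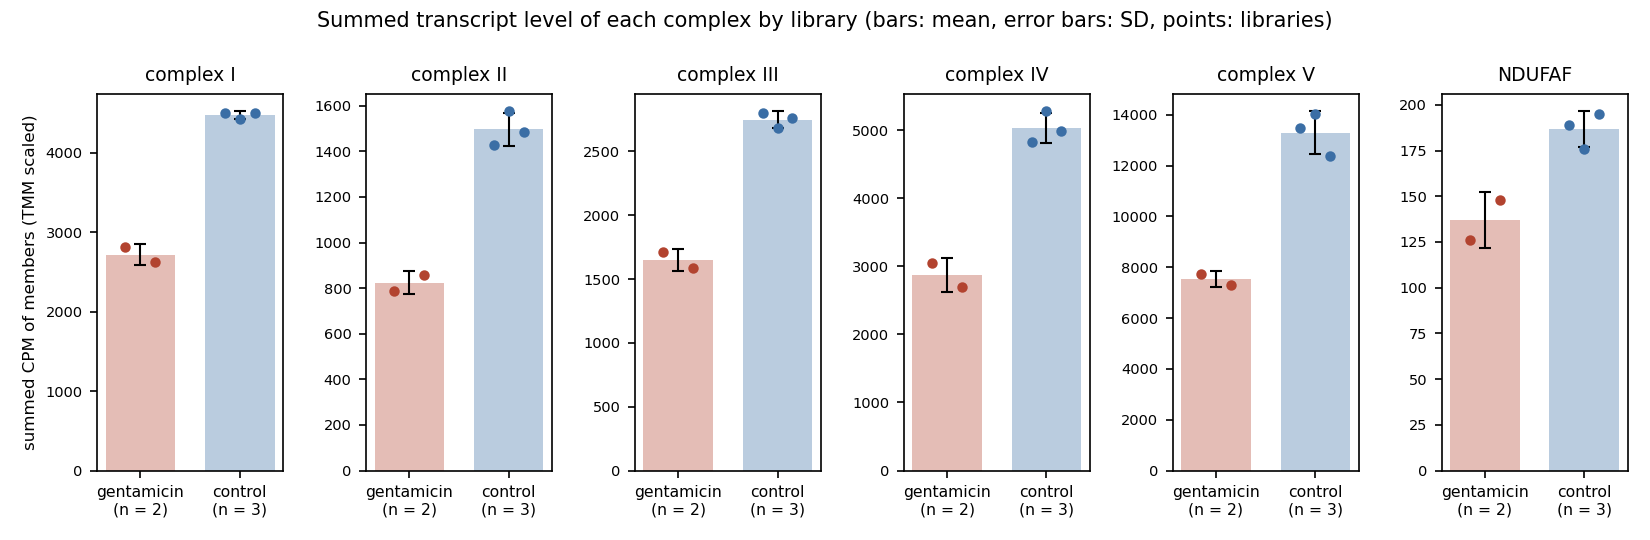
Summed level of the members of each complex (vertical axes, TMM-scaled CPM, each starting at 0) in gentamicin (left, n = 2) and control kidneys (right, n = 3). Bars give the mean, error bars the SD and points the libraries. In every panel both gentamicin points lie below all 3 control points on this scale. As shares of all counts the NDUFAF groups overlapped, at 0.0139% and 0.0174% in gentamicin libraries and 0.0161% to 0.0181% in controls.

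Complex IV, cytochrome c oxidase, reduces oxygen at a core made in the mitochondrion and surrounded by nuclear-encoded subunits, several of which exist as tissue or condition-dependent isoforms. It held the widest range of changes: 12 of 17 tested models fell, 1 rose, and 4 (both COX7B models, a COX4I1 model with 4 to 22 counts per library and 1 of the NDUFA4 models) were not called, at log2 fold changes between -2.49 and 2.27 and a median of -0.77. The summed level was 3052 and 2694 CPM in gentamicin libraries 1 and 3, against 4837, 5279 and 4993 CPM in controls 1, 2 and 3. The controls were all higher.

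Subunit 4, which takes part in the allosteric control of the enzyme by ATP, was represented by COX4I1, the general isoform, and COX4I2, an isoform that in mammals is abundant in lung and induced by hypoxia. COX4I2 (AMEX60DD027180, chromosome 3p, 289668627 to 290417950) had 75.4 and 52.4 CPM in gentamicin libraries 1 and 3, against 273, 405 and 398 CPM in controls 1, 2 and 3. The values were several times lower in both gentamicin kidneys, with a log2 fold change of -2.49 ± 0.25, or 5.62-fold lower (edgeR adjusted p = 0.000383), the most negative value of any member. COX4I1 had 425 and 354 CPM in gentamicin libraries, against 619, 694 and 677 CPM in controls, and fell by 0.77 ± 0.13 on the log2 scale (edgeR adjusted p = 0.00365). As a share of the counts on all subunit 4 models, COX4I2 took 15.1% and 12.9% in gentamicin libraries, against 30.5%, 36.8% and 37.0% in controls. Per length, this share was 9.29% and 7.88% in gentamicin libraries, against 20.3%, 25.2% and 25.3% in controls. It was taken from the authors' FPKM, a level scaled to gene length, library size and 1 further factor per library. The COX4I2 name comes from a match to a non-human protein, with no human name or description beside it.

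Subunit 7A had a similar split. COX7A1, the heart and muscle isoform of mammals, lies on chromosome 2q (673804684 to 674204556). It had 60.9 and 49.9 CPM in gentamicin libraries 1 and 3, against 200, 204 and 195 CPM in controls 1, 2 and 3. The controls were tightly grouped well above both gentamicin values, and the log2 fold change was -1.85 ± 0.13, or 3.61-fold lower (edgeR adjusted p = 3.16e-05). COX7A2, the general isoform, had 203 and 188 CPM in gentamicin kidneys, against 294, 298 and 280 CPM in controls. It fell by 0.57 ± 0.11 on the log2 scale (edgeR adjusted p = 0.00637), and was not called without gentamicin library 3 (adjusted p = 0.0627). COX7A1 took 23.1% and 21.0% of the counts on the COX7A1 and COX7A2 models in gentamicin libraries, against 40.5%, 40.7% and 41.0% in controls. Per length, in FPKM, its share was 10.5% and 9.39% in gentamicin libraries, against 21.0%, 21.1% and 21.4% in controls. The shift in share was not tested for either pair. COX4I2 and COX7A1 were called lower under every alternative fitted by gene model.

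Of 11 muscle marker symbols 7 were matched, and ACTA1, MB, MYH1 and MYH4 were not. The summed level of the matched symbols was 3.51 and 6.14 CPM in gentamicin libraries, against 8.47, 4.65 and 3.68 CPM in controls. The part of muscle in the level of COX7A1 was not tested.

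NDUFA4, once assigned to complex I and now to complex IV, was represented by 2 models. The model on chromosome 8p (AMEX60DD051689) spans 517 bases, whereas the median member spans 96782 bases, so it is far more compact than most. It had 104 and 66.4 CPM in gentamicin libraries, against 276, 288 and 233 CPM in controls, and fell by 1.64 ± 0.21 on the log2 scale (edgeR adjusted p = 0.0011). The model on chromosome 1p (AMEX60DD016167) had 142 and 203 CPM in gentamicin libraries, against 185, 275 and 241 CPM in controls. The groups overlapped, and this model's log2 fold change was -0.43 ± 0.21 (edgeR adjusted p = 0.181). With counts of both models summed, NDUFA4 was 1.94-fold lower (edgeR adjusted p = 0.00108).

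**Figure D3:**
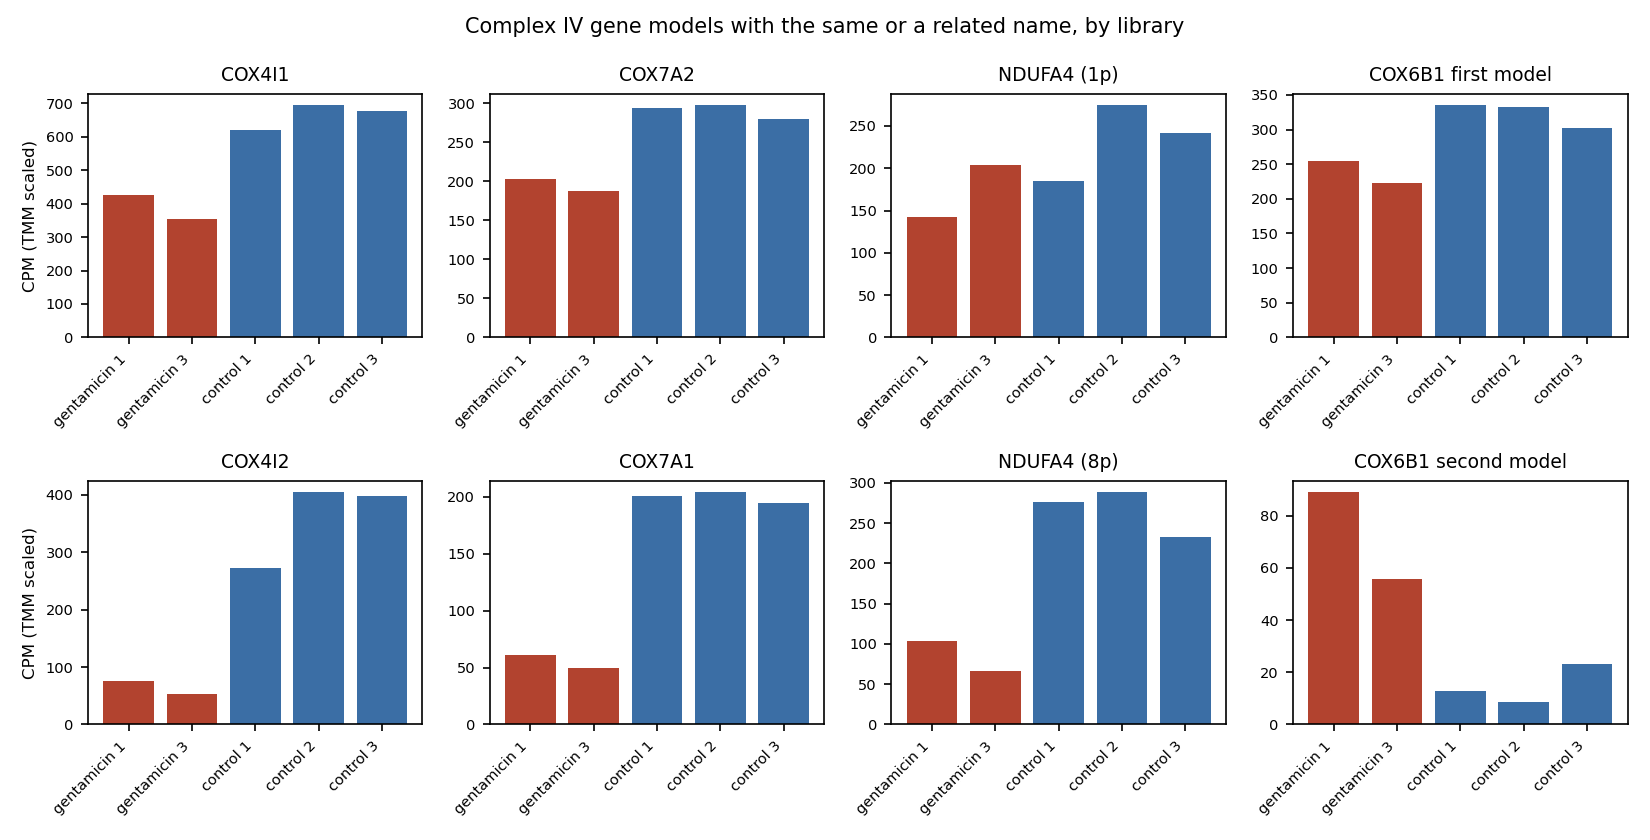
TMM-scaled CPM (vertical axes, each starting at 0) of pairs of complex IV gene models in each library, gentamicin in red and control in blue. The upper row shows COX4I1, COX7A2, the 1p model of NDUFA4 and the first COX6B1 model, and the lower row COX4I2, COX7A1, the 8p model of NDUFA4 and the second COX6B1 model. COX4I2 and COX7A1 stand at 49.9 to 75.4 CPM in gentamicin libraries and at 195 to 405 CPM in controls, and the second COX6B1 model is the panel in which gentamicin stands higher.

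Among the other complex IV subunits, COX6A1, the general isoform of subunit 6A, had the most counts of the complex, with 500 and 458 CPM in gentamicin libraries, against 824, 871 and 827 CPM in controls. It fell by 0.81 ± 0.12 on the log2 scale (edgeR adjusted p = 0.0015). COX5A and COX5B fell by 0.67 ± 0.12 and 0.85 ± 0.14 (edgeR adjusted p = 0.00374 and 0.00345). COX7A2L, a factor that joins complexes III and IV into supercomplexes, fell by 0.51 ± 0.13 (edgeR adjusted p = 0.0214) in its main model, a call lost without gentamicin library 3 (adjusted p = 0.179). Its second model, with 348 to 672 counts per library, fell by 1.15 ± 0.17 (edgeR adjusted p = 0.00147).

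The only member called higher was the second of 2 COX6B1 models (AMEX60DD016179); COX6B1 sits on the intermembrane face of complex IV near the cytochrome c site. This model had 89.0 and 55.7 CPM in gentamicin libraries 1 and 3, against 12.9, 8.73 and 23.2 CPM in controls 1, 2 and 3. Both gentamicin values were above all controls, at a log2 fold change of 2.27 ± 0.46 (edgeR adjusted p = 0.0241). The call was lost without control 1 (edgeR adjusted p = 0.11), without the filter on low counts (0.114) and with the label number as a block (0.0841). Without gentamicin 1 or 3 this model was not called either, at log2 fold changes of 1.90 and 2.58. The first COX6B1 model (AMEX60DD016178) had 254 and 222 CPM in gentamicin libraries, against 335, 333 and 302 CPM in controls, and fell by 0.44 ± 0.12 (edgeR adjusted p = 0.0295).

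Both COX6B1 models lie on chromosome 1p, at 1166741791 to 1166805129 on the minus strand and 1166804401 to 1166990576 on the plus strand, and they share 729 bases. No strand setting for the counting was known from the sources, so reads from the shared stretch cannot be told apart. The first model took 74.1% and 80.0% of COX6B1 counts in gentamicin libraries, against 96.3%, 97.4% and 92.9% in controls, and the second model the remainder. With both models summed, COX6B1 differed by -0.12 ± 0.13 on the log2 scale (edgeR adjusted p = 0.504).

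COX7B, a small transmembrane subunit, was divided between 2 models, with shares that differed in control 1 and between the groups. A model on an unplaced contig (AMEX60DDU001007364) had 2422 and 2321 counts in gentamicin libraries 1 and 3, against 490, 2343 and 2141 in controls 1, 2 and 3. A model on chromosome 5p (AMEX60DD037088) had 481 and 436 counts in gentamicin libraries, against 2687, 1147 and 1126 in controls. Control 1 was low for the contig model and high for the 5p model, while the sum in that control was close to the other controls. The 5p model took 16.6% and 15.8% of COX7B counts in gentamicin libraries, against 84.6%, 32.9% and 34.5% in controls 1, 2 and 3. With group as the only term, edgeR called neither model in the full data. The contig model stood at 0.12 ± 0.70 (edgeR adjusted p = 0.927) and the 5p model at -2.32 ± 0.60 (0.0598). The 5p model was called lower in the full data by DESeq2 (adjusted p = 0.00156) and by edgeR with the label number as a block (0.0121). It was also called by limma on the filtered log2(FPKM + 1) (adjusted p = 0.0253) and log2(FPKM + 0.1) values (0.024). Without control 1, it fell by 1.69 (edgeR adjusted p = 7.52e-05). Summed over all COX7B models, the counts were 2904 and 2757 in gentamicin libraries, against 3177, 3491 and 3270 in controls, and COX7B was 1.58-fold lower (log2 fold change -0.66 ± 0.12; edgeR adjusted p = 0.00453).

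**Figure D4:**
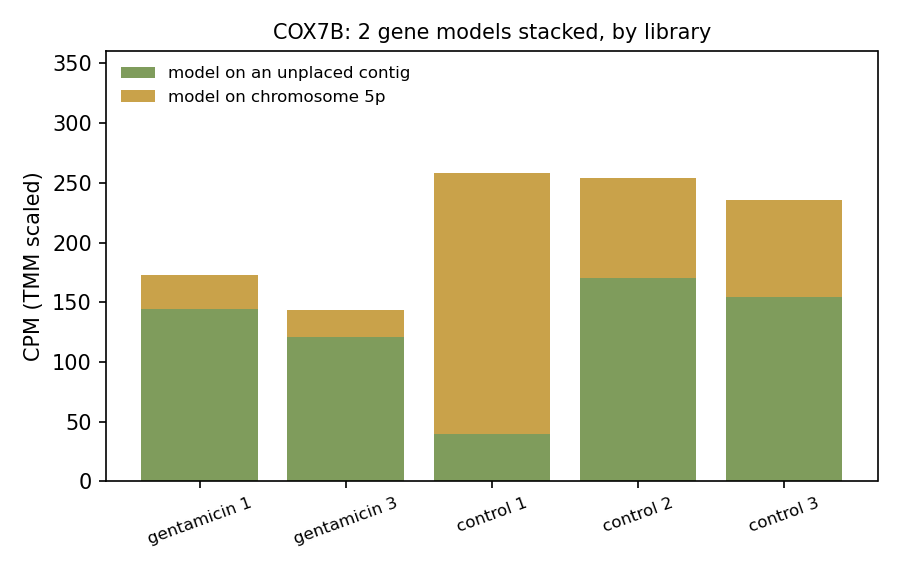
TMM-scaled CPM (vertical axis) of the COX7B models on an unplaced contig (green) and on chromosome 5p (ochre), stacked for each library. The contig model takes 83.4% and 84.2% of COX7B counts in gentamicin libraries 1 and 3, and 15.4%, 67.1% and 65.5% in controls 1, 2 and 3, while the stacked total is lower in both gentamicin libraries.

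Complex V, the ATP synthase, made up the largest part of the member counts, 47.9% ± 0.22 in gentamicin kidneys and 48.8% ± 1.5 in controls (SD, n = 2 and 3). Of 24 tested models 18 fell and 6 were not called, with a median log2 fold change of -0.77. The summed level was 7530 ± 310 CPM in gentamicin kidneys, against 13296 ± 835 CPM in controls. In the F1 head and central stalk, where ATP is formed, 5 of 6 models fell. ATP5F1B, the catalytic beta subunit on chromosome 3q (490421205 to 490430891), had the highest level per length, 884 ± 14.3 FPKM in gentamicin kidneys and 1674 ± 163 FPKM in controls. It measured 1856 and 1892 CPM in gentamicin libraries 1 and 3, against 3423, 3948 and 3305 CPM in controls 1, 2 and 3.

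Its lowest control exceeded both gentamicin libraries by a wide margin, and ATP5F1B fell by 0.93 ± 0.14 on the log2 scale (edgeR adjusted p = 0.00175). ATP5F1A, the alpha subunit, had 1432 and 1530 CPM in gentamicin kidneys, against 2339, 2535 and 2228 CPM in controls. Its log2 fold change was -0.68 ± 0.13 (edgeR adjusted p = 0.00572). ATP5F1E, the epsilon subunit of the stalk, had 140 and 103 CPM in gentamicin libraries, against 305, 242 and 244 CPM in controls. It had the most negative value of complex V, -1.12 ± 0.17 (edgeR adjusted p = 0.00226).

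The rotating c ring is made in mammals from several genes whose mature products are identical. Of 5 c ring models 3 fell, with a median of -0.76. ATP5MC3 had 759 and 667 CPM in gentamicin libraries, against 1298, 1372 and 1241 CPM in controls, and fell by 0.87 ± 0.13 on the log2 scale (edgeR adjusted p = 0.00158). A model on chromosome 3q, named ATP5MC3 by a non-human match and ATP5MC2 by the human match that is followed here, had 627 and 593 CPM in gentamicin libraries, against 1165, 1049 and 890 CPM in controls, with no overlap. It fell by 0.76 ± 0.15 (edgeR adjusted p = 0.00607), and was not called without gentamicin library 3 (adjusted p = 0.056). The peripheral stalk, which holds the head still, had 4 of 5 models lower, among them ATP5PF, which fell by 0.99 ± 0.19 (edgeR adjusted p = 0.00748).

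Of the supernumerary membrane subunits 6 of 8 models fell. ATP5MF, the f subunit, had 222 and 178 CPM in gentamicin libraries, against 428, 410 and 351 CPM in controls, a log2 fold change of -0.99 ± 0.15 (edgeR adjusted p = 0.00189). The 6 uncalled complex V models were each a further model of ATP5F1C, ATP5MC2, ATP5MC3, ATP5MF, ATP5MPL or ATP5PF. Those of ATP5F1C and ATP5MF had 21 to 38 counts per library and were the least negative of the complex, at -0.37 each (edgeR adjusted p = 0.497 and 0.52). All 6 of these symbols were called lower when their models were summed.

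The NDUFAF factors assemble complex I and are not part of the finished enzyme. Of 9 tested models none was called in either direction by edgeR, all 9 had a negative log2 fold change, and the median was -0.39. At an unadjusted p under 0.05 the count was 1, and DESeq2 and limma-voom each called 0. Both gentamicin libraries lay below all controls for 3 of the 9. NDUFAF3, which acts early in the assembly of the Q module, had the most counts of this group, at 52.1 and 70.6 CPM in gentamicin libraries, against 92.6, 71.8 and 80.9 CPM in controls. Gentamicin library 3 was close to the lowest control, and the log2 fold change was -0.41 ± 0.17 (edgeR adjusted p = 0.108). NDUFAF1 differed by -0.41 ± 0.20 (edgeR adjusted p = 0.163), NDUFAF4 by -0.35 ± 0.17 (0.166) and NDUFAF8 by -0.69 ± 0.31 (0.156).

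NDUFAF8 had 10.9 and 7.02 CPM in gentamicin libraries, against 9.36, 17.1 and 16.6 CPM in controls, with control 1 among the gentamicin values. Without control 1 it was called lower (edgeR adjusted p = 0.0185), and likewise without the filter on low counts (0.0122). Per length, NDUFAF4 averaged 9.85 FPKM in gentamicin kidneys and 12.5 FPKM in controls, above the main NDUFAF3 model at 8.05 FPKM in gentamicin kidneys and 10.7 FPKM in controls. A second NDUFAF3 model differed by -0.58 ± 0.55 (edgeR adjusted p = 0.507). NDUFAF5 and NDUFAF7 differed by -0.28 and -0.27 and had a positive sign under total-count scaling, 0.05 each. Both overlap a more abundant neighbour, ESF1 with 2863 counts against 732 for NDUFAF5 and BRIX1 with 6218 counts against 353 for NDUFAF7.

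NDUFAF2, chosen after its values were seen, had its counts spread over 3 models. One on an unplaced contig (AMEX60DDU001012395) had 2 and 1 counts in gentamicin libraries, against 79, 0 and 1 in controls 1, 2 and 3, so that control 1 held nearly all of them. Summed over its models, NDUFAF2 was called lower, at -0.66 ± 0.17 (edgeR adjusted p = 0.0213). The assembly factors had a far lower level per length than the subunits: over symbols, the median was 5.38 FPKM in gentamicin kidneys and 7.01 FPKM in controls. For complex I it was 40.1 FPKM in gentamicin kidneys and 68.2 FPKM in controls. The subunits of complexes I to V had 76 of 90 tested models called lower (84.4%), against 0 of 9 for the NDUFAF models. Over all genes tested the share was 13.4%. The smallest standard error was 0.166 among the NDUFAF models and 0.106 among the subunits. All 9 NDUFAF models had a negative log2 fold change, so the absence of calls does not show that they were unchanged. The difference in calls was not tested.

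The balance between complexes was nearly the same in both groups. Complex I took 17.3% ± 0.0539 of the member counts in gentamicin kidneys and 16.5% ± 0.69 in controls (SD, n = 2 and 3). Complex II took 5.25% ± 0.555 in gentamicin kidneys and 5.5% ± 0.217 in controls. The share of complex III was 10.5% ± 0.0894 in gentamicin kidneys and 10.1% ± 0.519 in controls, and that of complex IV was 18.2% ± 0.772 in gentamicin kidneys and 18.5% ± 0.646 in controls. For these complexes and for complex V the difference was under 2 SD of the controls. The NDUFAF factors took 0.774% and 0.973% in gentamicin libraries 1 and 3, against 0.694%, 0.626% and 0.74% in controls, so that both gentamicin values were higher. None of these differences was tested.

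Levels per length, as the authors' FPKM of the model with most counts for each symbol, had a median of 50.9 in gentamicin kidneys and 88.0 in controls for complex II. The median was 137 FPKM in gentamicin kidneys and 237 FPKM in controls for complex III, and 154 FPKM in gentamicin kidneys and 234 FPKM in controls for complex IV. Complex V had a median of 150 FPKM in gentamicin kidneys and 288 FPKM in controls. The medians of complexes III, IV and V were thus above those of complexes I and II in both groups. The ranges over symbols overlapped: in controls, complex V ran from 45.6 to 1674 FPKM and complex I from 5.1 to 184 FPKM.

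Several symbols were divided over more than 1 model. A total of 13 members spanned fewer than 2000 bases, and all 13 shared their symbol with another model. Of these, 5 were called lower, among them the 8p model of NDUFA4 and the second models of CYC1 and UQCRB. Reads of nearly identical copies can be shared between such models, and 20 members also overlapped another model with at least 10 counts. With all models of a symbol summed, 71 of 80 symbols (88.8%) were called lower by edgeR. Those not called were COX6B1, NDUFB5 and 7 of the 8 NDUFAF symbols.

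Genes that work beside the complexes were counted against the same backgrounds. These were 13.4% lower and 13.3% higher over all genes tested, and 31.8% lower and 16.2% higher over genes of about 50 CPM or more. Many models of the lists below lay under 50 CPM, so the background of abundant genes covers them only in part. Of 13 tested models named for subunits encoded in mitochondrial DNA 8 fell, with a median log2 fold change of -0.99. Among them MT-CO1, the catalytic core of complex IV, averaged 2504 CPM in gentamicin kidneys and 5154 CPM in controls, a log2 fold change of -1.04 (edgeR adjusted p = 0.00232). Of 9 models of electron carriers and quinone-linked dehydrogenases 6 fell and 1 rose, with a median of -0.54. PRODH, which feeds electrons from proline, fell by 1.11 (edgeR adjusted p = 0.000858), and ETFA, which collects them from fatty acid oxidation, by 0.86 (edgeR adjusted p = 0.00104). DHODH, which feeds in electrons from pyrimidine synthesis, rose by 0.48 (edgeR adjusted p = 0.0216). CYCS, cytochrome c itself, was not called at -0.28 (edgeR adjusted p = 0.311).

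Ubiquinone synthesis had 5 of 16 models lower (31.2%) and 2 higher (12.5%), with a median of -0.36. The lower share was above that of all genes tested (13.4%) and near that of abundant genes (31.8%). Many of these models, such as COQ4 and COQ7, lay below the 50 CPM that marks abundant genes here. COQ6, a ring hydroxylase, fell by 0.97 (edgeR adjusted p = 0.00679), COQ7 by 0.80 (0.00183) and COQ9 by 0.74 (0.00211). PDSS1, which makes the side chain, rose by 0.46 (edgeR adjusted p = 0.035). Assembly factors of complexes II to V had 11 of 38 models lower (28.9%) and 1 higher (2.63%), with a median of -0.39. The lower share lay between those of all genes and of abundant genes. TACO1, a translational activator of mitochondrial COX1, fell by 0.81 (edgeR adjusted p = 0.00372) and COX15, needed for heme a, by 0.74 (edgeR adjusted p = 0.00188). COX19, a copper-pathway factor, rose by 0.43 (edgeR adjusted p = 0.046).

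Of 8 other complex I assembly models 2 fell (25%), again between both backgrounds. FOXRED1 stood out, with 772 and 1018 counts in gentamicin libraries, against 5238, 6315 and 5288 in controls. It was 8.54-fold lower, with a log2 fold change of -3.09 ± 0.15 (edgeR adjusted p = 4.92e-06), beyond every member of the chain. ACAD9, an acyl-CoA dehydrogenase-like assembly factor, fell by 0.99 (edgeR adjusted p = 0.00141). Factors of supercomplexes and cristae fell in 4 of 16 models (25%), likewise between both backgrounds, with a median of -0.38, HIGD2A by 0.86 (edgeR adjusted p = 0.00251) and CHCHD3 by 0.71 (edgeR adjusted p = 0.00457).

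Markers often used for mitochondrial content fell in 10 of 16 models, with a median of -0.51. Citrate synthase, CS, fell by 0.60 (edgeR adjusted p = 0.00538) and the outer membrane channel VDAC1 by 0.50 (edgeR adjusted p = 0.0102). The phosphate carrier SLC25A3, which supplies the ATP synthase, fell by 1.05 (edgeR adjusted p = 0.000655). The ADP/ATP carrier SLC25A5 fell by 1.23 (edgeR adjusted p = 0.000645) in its main model. The chaperonin HSPD1 was not called, at -0.06 (edgeR adjusted p = 0.843). Nor were TOMM40 at 0.19 (edgeR adjusted p = 0.46), the main TOMM22 model at -0.09 (0.679), TIMM23 at -0.15 (0.479) and TIMM44 at -0.28 (0.113). TOMM20 fell by 0.52 (edgeR adjusted p = 0.0219) and TOMM70 by 0.48 (0.0138).

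Regulators of mitochondrial biogenesis had 2 of 15 models lower (13.3%) and 1 higher (6.67%), with a median of -0.31. The lower share was close to that of all genes tested. PPARGC1A, the PGC-1 alpha coactivator, averaged 32.4 CPM in gentamicin kidneys and 41.9 CPM in controls and was not called (-0.37; edgeR adjusted p = 0.129). TFAM, which packages mitochondrial DNA, was also not called (-0.31; edgeR adjusted p = 0.147). The nuclear receptor ESRRG fell by 0.76 (edgeR adjusted p = 0.0133) and the mitochondrial DNA polymerase POLG by 0.66 (edgeR adjusted p = 0.0259), and the coactivator PPRC1 rose by 0.82 (edgeR adjusted p = 0.0368). Among the genes of uncoupling and alternative pathways, UCP2 fell by 1.55 (edgeR adjusted p = 0.00392). A UCP1 model had 2 and 5 counts in gentamicin libraries, against 78, 183 and 128 in controls. A further UCP1 model and the UCP3 model had 0 counts in both gentamicin libraries and at most 13 in any control. Models with so few gentamicin counts can pass the filter on low counts only through the controls. For this list neither a count of calls nor a median is therefore given.

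**Figure D5:**
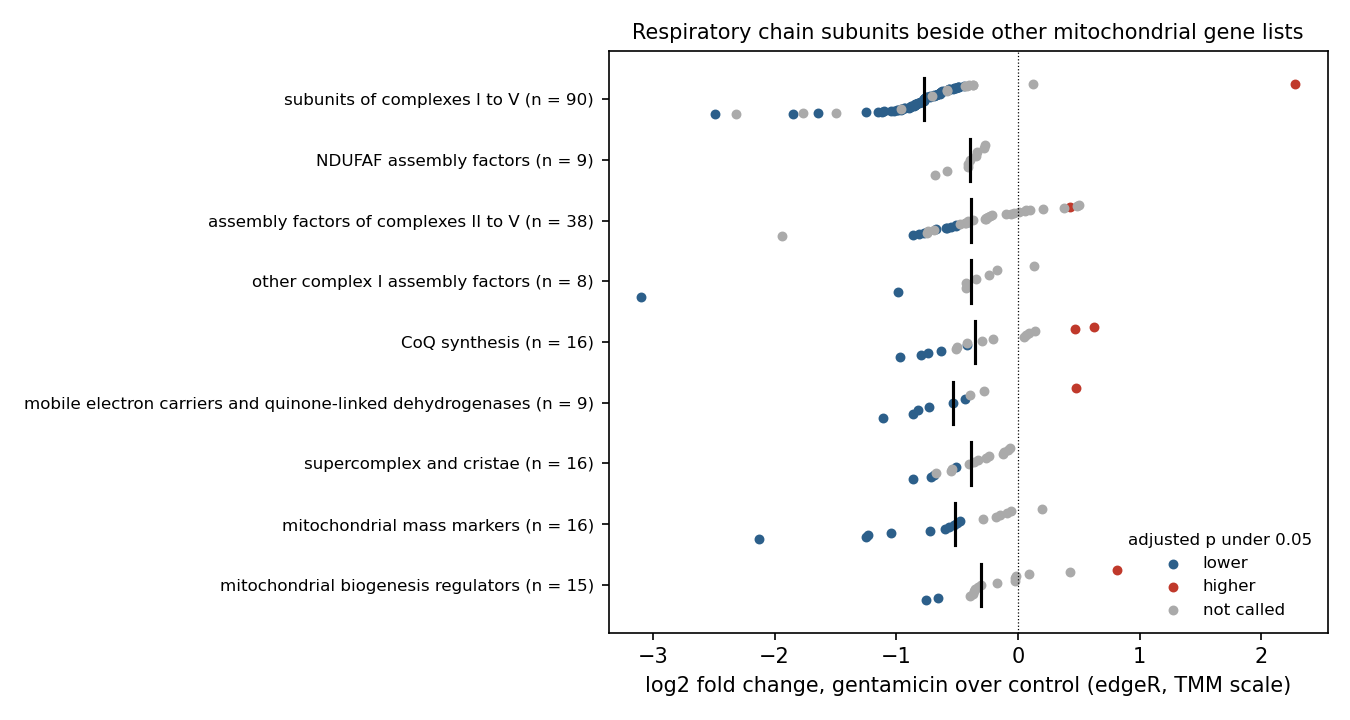
Log2 fold change of each tested model (horizontal axis, gentamicin over control; edgeR on the TMM scale) in the respiratory chain and in lists of related mitochondrial genes (rows, with the number of tested models). Vertical bars mark medians. Over the 9 rows drawn, which leave out the mitochondrial DNA-encoded subunits and the uncoupling genes, these run from -0.77 for the subunits of complexes I to V to -0.31 for biogenesis regulators.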

How the data were processed

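Total RNA was extracted with TRIzol and made into libraries with the NEBNext Ultra kit, per the labels' protocols. CASAVA 2.19, fastp, HISAT2 2.0.5, featureCounts 1.5.0-p3 and DESeq2 1.20.0 were used, per the submitters' processing notes. Build and strandedness of the counting are not stated in these sources. The authors deposited 2 tables whose names are exchanged: the table named for FPKM holds raw counts (100% whole numbers), and the table named for counts holds FPKM. Each deposited FPKM equals count over gene length and library total, times 1 factor per library. The factors were 0.8835 and 0.8387 for gentamicin, and 1.0943, 1.0735 and 1.0453 for controls. FPKM differences between groups are therefore not those of shares of all counts. Coordinates and names are those of the deposited tables.

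Counts were fitted for gentamicin against control with edgeR 4.0.16 in R 4.3.3 (filterByExpr with minimum count 10 and minimum total 15, TMM scaling, robust quasi-likelihood with group as the only term, two-sided), and p-values were adjusted by Benjamini-Hochberg over 22006 genes and called under 0.05. Standard errors are the size of a log2 fold change over the root of F. Libraries were 1 per axolotl, and p-values measure the spread between animals.

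Members and lists were chosen with earlier results of these data known. In each complex the text names the 4 most abundant tested members, the 3 most negative and 2 most positive log2 fold changes, every member called higher, and a set of core subunits whatever their values. Some results that this rule takes are not reported here. Members counted or named beyond these were chosen after their values were seen. Alternatives were DESeq2 1.42.0, limma-voom (limma 3.58.1), other scalings, other filters, removal of genes above 1% of a library, the label number as a block, each library left out, limma on log2(FPKM + 1) and log2(FPKM + 0.1) at mean FPKM 0.5 or more, or unfiltered, and all models of a symbol summed. The fit was tested on simulated data.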

Additional observations from a re-analysis of the deposited data

How the results depend on the processing

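With only 2 gentamicin libraries, leaving out either moved the counts of calls. With each library left out in turn, members called lower numbered 50 to 77 and higher 0 to 1, complex I lower 19 to 30, complex III lower 6 to 11, complex IV higher 0 to 1, NDUFAF factors lower 0 to 2, and all genes higher 1333 to 2770 and lower 1627 to 2963. With 1 gentamicin library the lone sample is assumed to vary like the controls. Members called lower also became fewer in each of complexes II, IV and V in at least 1 such fit. Over the 5 fits with a library left out, median log2 fold changes ran from -0.80 to -0.68 for all members. They ran from -0.79 to -0.65 for complex I, -0.85 to -0.75 for complex III and -0.90 to -0.71 for complex IV. For complex V the range was -0.83 to -0.66, and for NDUFAF -0.52 to -0.33. The NDUFAF share of counts, gentamicin minus control, ran from -0.00312 to 0.000311 percentage points, turning positive without gentamicin 1.

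Total-count scaling gave 19 complex I and 6 complex III models lower, 6192 genes higher and 1895 lower, and medians of -0.44 over all members, -0.42, -0.58, -0.46, -0.45 and -0.45 for complexes I to V, and -0.077 for NDUFAF, by its 0.32 shift of all genes. No member, of complex IV or otherwise, was called higher with no filter on low counts (0), with the block (0) or with models summed (0). NDUFAF calls lower were 2 with no filter and 1 with models summed. Limma on unfiltered log2(FPKM + 1) called 1796 genes higher and 1828 lower, with the cause not tested. Summing models turned COX6B1 (AMEX60DD016179) to -0.12 and COX7B (AMEX60DDU001007364) to -0.66, by construction. Over the named members, 931 values by setting stayed on their side of the threshold, 52 lost and 15 gained a call. Several of the gains came with models summed, where the value is that of the whole symbol and not of the model.

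Deviations of same-numbered libraries correlated at -0.039 and 0.064. The deviations of the gentamicin libraries mirror each other, so each control correlated with them at equal size and opposite sign. These values therefore cannot decide whether the label numbers pair animals. With the number as a block, 72 members were lower and 0 higher, the NDUFAF median was -0.33, and 2118 genes were higher and 2367 lower.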

Other observations

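Erythroid markers were tested because red cells carry nuclear and mitochondrial transcripts in amphibians. They rose in 1 (11.1%) and fell in 1 (11.1%) of 9 tested models by edgeR. Over all genes tested, 13.3% were called higher and 13.4% lower. Summed erythroid levels were 814 and 849 CPM in gentamicin libraries, against 959, 1047 and 1611 CPM in controls. The part of red cells in the respiratory chain levels was not tested.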
